A study of Mus musculus with 6 samples.

Results

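The genes of the cytosolic ribosomal proteins were followed in islets of Langerhans, the clusters of endocrine cells in the pancreas, of male wild-type OF-1 mice (an outbred stock) at postnatal day 30. From gestation day 9 to day 16 their mothers received vehicle or bisphenol-A, a building block of plastics that can act like an estrogen, in a daily dose of 10 or 100 µg/kg. The groups are called vehicle, BPA10 and BPA100, with 2 Affymetrix arrays each. Per the labels, vehicle replicate 1 pooled 5 mice and BPA10 replicate 2 pooled 2, while the other 4 arrays held a single mouse each. Litters are not given, and the p-values cover no more than array-to-array spread. A gene was a member if its symbol was that of a ribosomal protein (Rpl or Rps with a number, Rpsa, or the stalk genes Rplp0, Rplp1 and Rplp2) and at least 1 probe set carried that symbol alone. These were 49 of 18193 genes. Each was represented by its probe set with the highest mean log2(signal + 1), and the members together had 105 of the 45037 probe sets other than controls. The current annotation holds 84 protein-coding symbols of this kind. Of these, 36 had no probe set of their own and are not analysed here, among them Rplp1, Rpl3, Rpl5 and Rps27a. The remaining 48 are members, and the other member, Rps4l, is a transcribed pseudogene in that annotation.

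The cytosolic ribosome is built from a small 40S and a large 60S subunit, each of ribosomal RNA and many small proteins, and every cell needs it to translate messenger RNA. Most of these messengers begin with a C followed by a run of pyrimidines, the 5′ terminal oligopyrimidine (TOP) tract, through which the growth-controlling kinase mTOR and the RNA-binding protein Larp1 regulate their translation together. Beta cells are heavy users of ribosomes because they make large amounts of insulin.

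The sequence around the annotated first base is shown for 6 members described below, since the tract is the feature that these genes are known to share. Each window has 40 bases before and 20 from the start, 5′ to 3′ on the gene's strand, from RefSeq on GRCm38.p6. Capitals mark each run of a C and at least 5 further pyrimidines within 20 bases either side of the start.
Rpl27a: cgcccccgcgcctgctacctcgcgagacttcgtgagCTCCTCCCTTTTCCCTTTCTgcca
Rps27: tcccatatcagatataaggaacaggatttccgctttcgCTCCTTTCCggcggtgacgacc
Rpl39: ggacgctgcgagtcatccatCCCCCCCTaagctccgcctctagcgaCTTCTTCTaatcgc
Rpl22l1: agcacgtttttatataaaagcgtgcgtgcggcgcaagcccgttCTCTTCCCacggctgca
Rps28: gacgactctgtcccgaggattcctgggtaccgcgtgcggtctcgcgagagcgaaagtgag
Rplp0: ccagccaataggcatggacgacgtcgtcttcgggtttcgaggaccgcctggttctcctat
The windows lie at chr7:109519155-109519214 on the plus strand for Rpl27a, chr3:90213629-90213688 on the minus strand for Rps27, chrX:37085203-37085262 on the minus strand for Rpl39 and chr3:28805468-28805527 on the plus strand for Rpl22l1. That of Rps28 lies at chr17:33824543-33824602 on the minus strand and that of Rplp0 at chr5:115559427-115559486 on the plus strand, and neither holds such a run. In Rpl27a the run is 20 bases long and spans the start. In Rps27 it is 9 bases long and also spans it. Rpl39 holds 2 runs, 1 on either side of the start. Among the 43 members with an entry, 28 (65.1%) held a run, against 8831 of 26982 other genes (32.7%). A C at the first base itself with 4 pyrimidines after it was found in 8 members (18.6%) and in 2.98% of the other genes. Over the whole promoter windows of 250 bases before and 50 after the start, the Ets motif ACTTCCGG was found on either strand in 10 members (23.3%), against 4.28% of the other genes. The YY1 motif AAGATGGC was found on either strand in 4 members (9.30%), against 3.18%. These are matches of letters and not binding sites, and the tract depends on the exact start that the annotation gives.

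Most members were among the bright probe sets of these islets (plot of signals by gene). A total of 36 members had a mean log2(signal + 1) of at least 11, and together the 49 members made up 1.96% and 1.90% of the summed signal on the vehicle arrays, 2.11% and 1.93% on the BPA10 arrays and 1.98% and 1.86% on the BPA100 arrays. The brightest were Rps29, a 40S protein with a zinc-binding fold, Rpl38, known from the skeletal patterning defects of its mouse mutants, and Rpl41, a very short basic protein of the 60S subunit. The signal of a probe set also depends on its probes, so this order does not rank the transcripts. Whether the dim probe sets of general subunit genes, such as Rpl27a, Rps27, Rps6, Rpl14 and Rpl39, report the level of the main transcript was not tested. Below the filter of the test, which was the 40th percentile of mean log2 values (4.60), lay 3 members, leaving 46. One was Rpl3l, the muscle form of Rpl3, at 14 and 11 on the vehicle arrays, 13 and 12 on the BPA10 arrays and 11 and 9 on the BPA100 arrays. Rpl39l, the testis-enriched form of Rpl39, stood at 3 and 2, 17 and 4, and 3 and 13 on the same arrays. The probe set with Rps16 as its single symbol gave 0 and 0, 1 and 0, and 1 and 7, so no level of this general 40S gene was read from it. The 110 probe sets that carry a ribosomal protein symbol among several had a median mean log2 value of 11.95 and cannot be given to 1 gene.

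**Figure D1:**
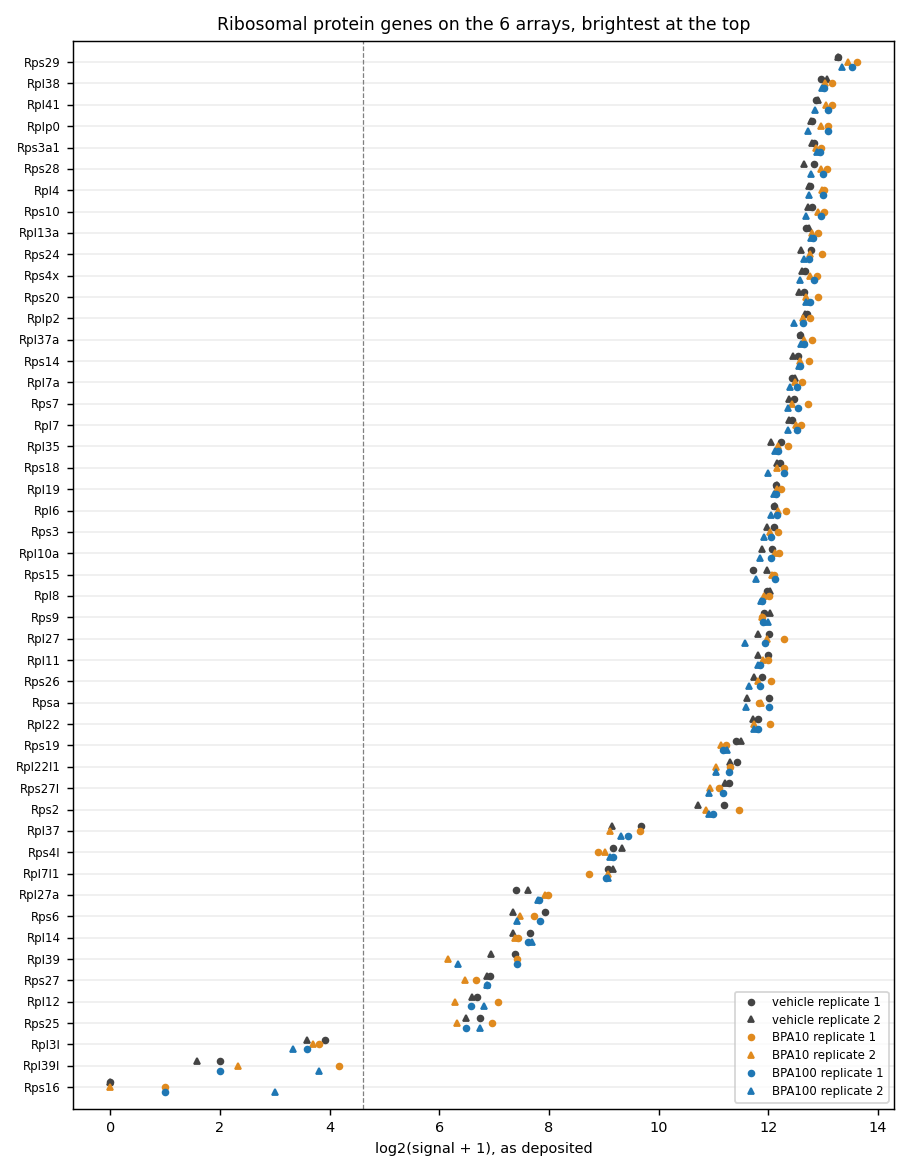
Signal of the 49 ribosomal protein genes on each of the 6 arrays, as log2(signal + 1) of the deposited values, with 1 row per gene and the filter of the test as a dashed line at 4.60. The points of a gene lie close together in the 36 rows from 11 upward, and spread more in the dim rows, as in Rpl39.

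All arrays were scaled to 1 mean. Their median signals were 33 to 40 and their highest 11218 to 15158. Of 10 islet endocrine markers 8 were found, and their summed signal was 52602 and 56276 on the vehicle arrays, 69589 and 66086 on the BPA10 arrays and 66925 and 55757 on the BPA100 arrays. Of 20 markers of the enzyme-secreting acinar cells 17 were found, and their summed signal was 115771 and 67074, 159237 and 146461, and 150953 and 91026 on the same arrays. The 10 stellate cell and fibroblast markers summed to 6572 and 5434, 10907 and 6163, and 5670 and 3940. Acinar and islet endocrine signals were thus higher on both BPA10 arrays than on both vehicle arrays, while the BPA100 and vehicle arrays overlapped. The 9 macrophage and lymphocyte markers found summed to 1961 and 886, 1680 and 1084, and 878 and 915, and the 9 mitosis genes found to 774 and 706, 1506 and 1726, and 1270 and 1315. The 5 endothelial markers summed to between 1356 and 1558 on the 6 arrays and the 2 red blood cell markers found to between 6 and 94. None of the markers found was at 0 on any array. The part of these cells in the differences below was not tested.

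In islets of BPA10 offspring the ribosomal protein genes were slightly higher than in vehicle offspring as deposited, and lower after quantile normalization, which gives the 6 arrays 1 common distribution of values. The median difference over the 49 members was 0.11 on the log2 scale as deposited, with 37 higher and 12 lower, and -0.10 after quantile normalization, with 10 higher and 39 lower. Centring each array on its median gave 0.14, with 38 higher. Of the 46 members tested, 34 were higher as deposited (73.9%), against 50.1% of all probe sets, and 7 after quantile normalization (15.2%), against 49%. Over all 27022 probe sets tested, the median difference was 0.00 as deposited and -0.01 after quantile normalization. In bulk islets, fewer cells of a type and less RNA per cell cannot be told apart. No member passed at an adjusted p under 0.05 with limma, and 0 of 27022 probe sets did (0%). The smallest adjusted p of a member was 0.663. At an unadjusted p under 0.05, 1 member was higher (Rpl27a) and 1 was lower (Rps19), against 3.12% and 3.96% of all probe sets tested. After quantile normalization 1 was higher and 2 were lower at that level, against 3.19% and 4.11%. For 35 of the 36 bright members the 95% interval of the difference held 0, and over these members the intervals ran from -0.54 (Rps19) to 0.72 (Rps2), or 0.688-fold to 1.64-fold.

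Both BPA10 arrays lay above both vehicle arrays for 18 of 46 members tested as deposited (39.1%), against 17.5% of all probe sets, and below them for 7 (15.2%), against 18.6%. After quantile normalization 1 member lay above (2.17%), against 18.2%, and 25 lay below (54.3%), against 19.6%. The members share their arrays, and so share whatever moves an array, and their counts are not independent. Rps29 had signals of 12559 and 11223 in BPA10 islets, against 9830 and 9879 in vehicle islets, a difference of 0.27 ± 0.12 (SE) as deposited and of -0.16 after quantile normalization. Rps28, another 40S protein, had 8597 and 7949 in BPA10 islets, against 7315 and 6413 in vehicle islets (0.27 ± 0.13, and -0.04 after quantile normalization). Rplp0, the core of the stalk on which elongation factors act, had 8644 and 7917 in BPA10 islets, against 7060 and 7051 in vehicle islets (0.23 ± 0.14, and -0.11 after quantile normalization). For these 3 genes the groups did not overlap as deposited, and the sign turned with the scale. Rplp2, also of the stalk, had 6902 and 6323 in BPA10 islets, against 6628 and 6505 in vehicle islets, which overlapped (0.01 ± 0.12, and -0.26 after quantile normalization). Rpl38 differed by 0.08 ± 0.12, and by -0.27 after quantile normalization. Rpl41 differed by 0.21 ± 0.13, and by -0.16 after quantile normalization.

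**Figure D2:**
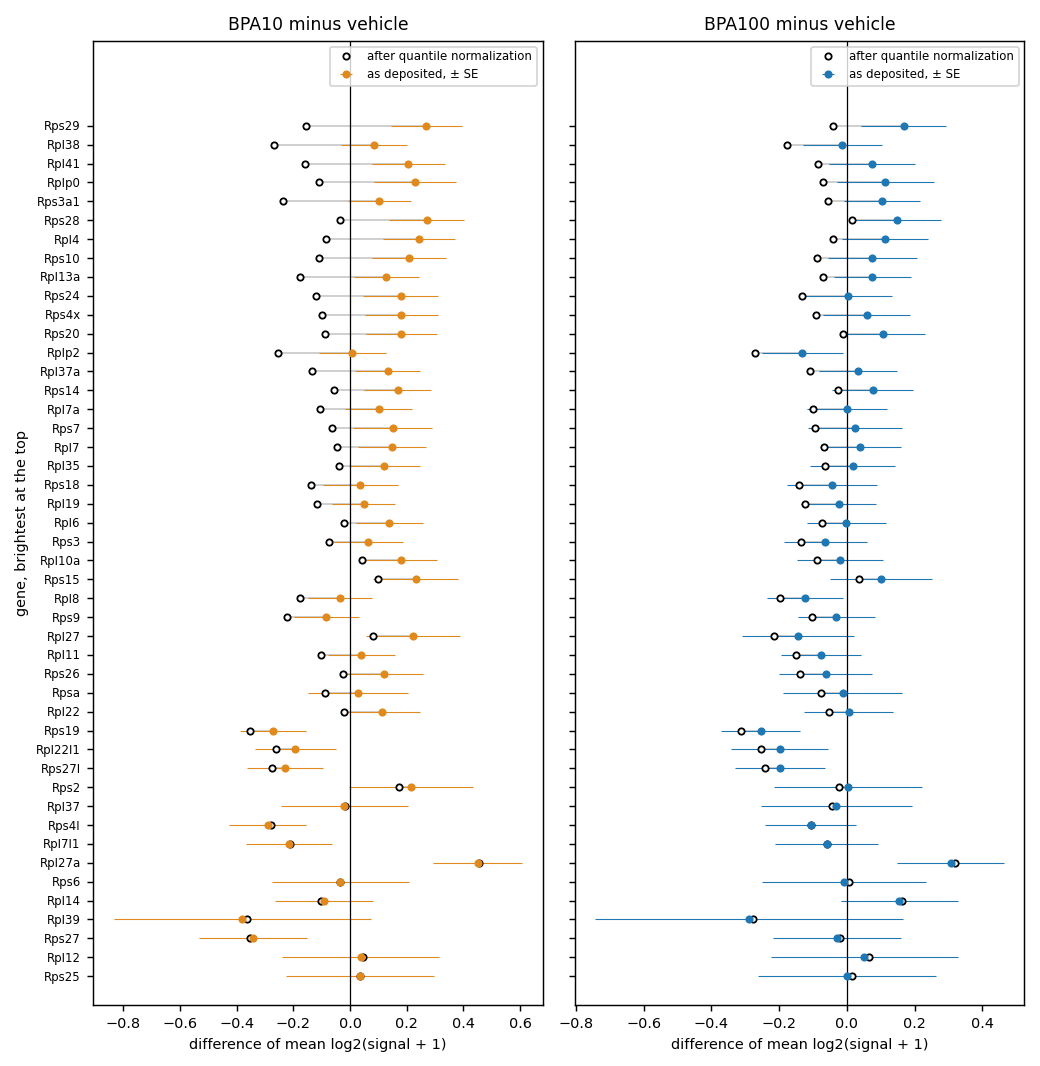
Difference of mean log2(signal + 1) between BPA10 and vehicle arrays (left) and between BPA100 and vehicle arrays (right) for the 46 members tested, brightest at the top. Filled points with bars are the deposited scale ± SE from limma and open points are after quantile normalization; the open points of the bright genes lie to the left of the filled ones, mostly across 0 for BPA10, while those of the 10 dim genes coincide with them.

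The turn of sign lay at the bright end of the scale, where most members are. The 36 bright members had a median difference of 0.13 as deposited (1.09-fold), with 31 higher and 5 lower, and of -0.10 after quantile normalization, with 4 higher and 32 lower. The 762 bright probe sets of other genes had a median of 0.11 as deposited, with 589 higher and 173 lower, and of -0.02 after quantile normalization, with 327 higher and 434 lower. As deposited, then, the median of the bright members was close to that of the other bright probe sets, and after quantile normalization it was lower. These differences were not tested. The close medians came from different arrays, by the deposited median deviation from the mean of all arrays. For the bright members it was 0.15 and 0.001 on BPA10 replicates 1 and 2, against -0.02 and -0.09 on the vehicle arrays. For the other bright probe sets it was 0.02 and 0.08, against -0.09 and -0.04. Of the BPA10 arrays, replicate 1 was thus the higher for the members and replicate 2 for the other probe sets. The 10 tested members of lower signal had a median difference from vehicle of -0.06 as deposited and -0.07 after quantile normalization. By subunit, the 21 members of the 40S subunit had a median of 0.15 and the 22 of the 60S subunit of 0.12 as deposited, and of -0.09 and -0.10 after quantile normalization.

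**Figure D3:**
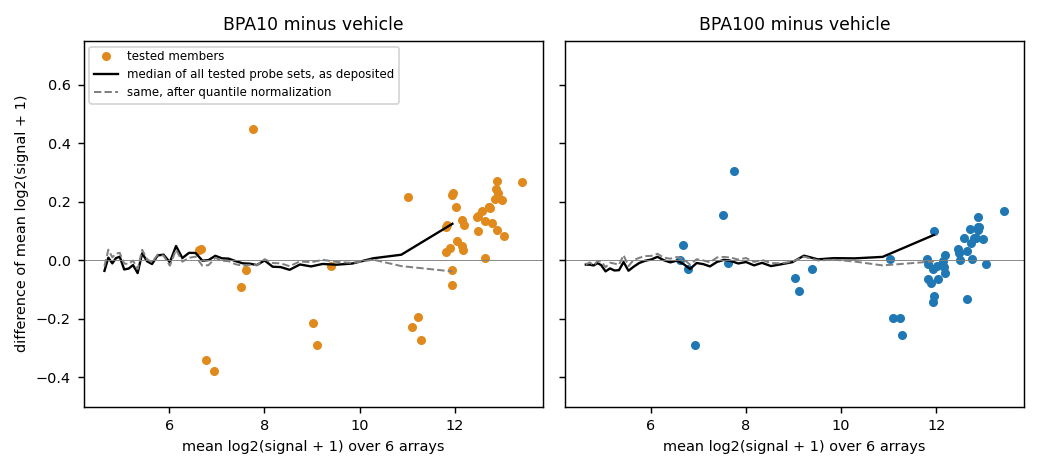
Difference of the 46 members tested on the deposited scale (points) against their mean log2(signal + 1), with the median of all tested probe sets in 40 bins of equal size, as deposited (solid) and after quantile normalization (dashed). In the last bin the deposited median is 0.12 for BPA10 minus vehicle and 0.09 for BPA100 minus vehicle, and the quantile normalized medians are -0.04 and -0.00.

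The size of the median depended on the array. On BPA10 replicate 1, 42 of 49 members lay above their 6-array mean, with a median deviation of 0.16, whereas on BPA10 replicate 2 it was 22 members with a median of -0.01. The medians on the vehicle arrays were 0.01 and -0.09 and on the BPA100 arrays 0.03 and -0.10. Without BPA10 replicate 1 the median difference over the members was 0.01, and without BPA10 replicate 2 it was 0.21. Within each group replicate 1 had the higher median as deposited. Between arrays of the same number, the median difference of BPA10 from vehicle islets was 0.19 for replicate 1, with 37 members higher, and 0.06 for replicate 2, with 32 higher, and after quantile normalization it was -0.06 and -0.13. As deposited, the islet endocrine, acinar, stellate, endothelial and red blood cell markers all had their highest summed signal on BPA10 replicate 1. That of the macrophage and lymphocyte markers was highest on vehicle replicate 1 (1961), and that of the mitosis genes on BPA10 replicate 2 (1726). The islet endocrine markers had their highest quantile normalized median deviation on vehicle replicate 2 (0.09). After quantile normalization the member medians were 0.06 and 0.05 on the vehicle arrays, 0.00 and -0.09 on the BPA10 arrays and -0.05 and -0.01 on the BPA100 arrays, so both vehicle arrays lay above all 4 others on that scale.

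**Figure D4:**
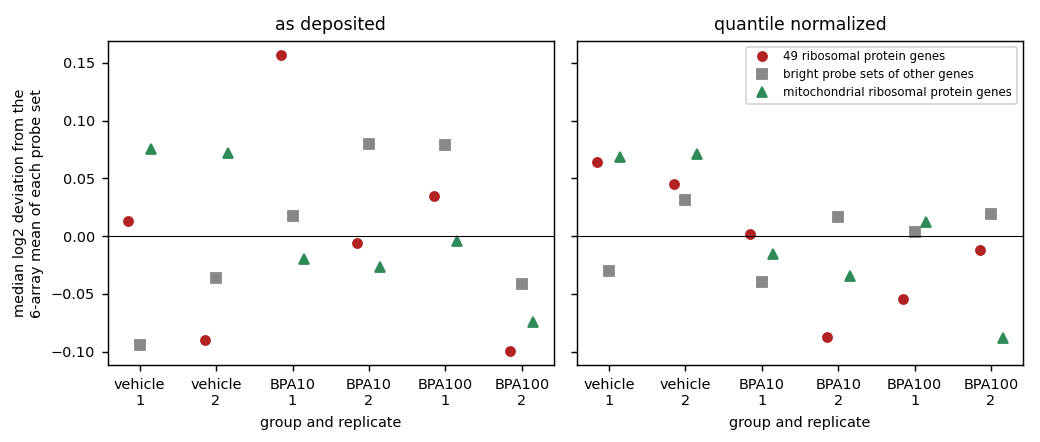
Median deviation of each array from the 6-array mean of every probe set, on the log2 scale, for the 49 ribosomal protein genes, the 762 bright probe sets of other genes and 76 mitochondrial ribosomal protein genes. As deposited the ribosomal protein genes are highest on BPA10 replicate 1 (0.16), and after quantile normalization they are highest on the 2 vehicle arrays (0.06 and 0.05).

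A few members kept their side of the vehicle arrays on the deposited, quantile normalized and median centred scales. In BPA10 islets 1 of 46 was higher on all 3 (2.17%), against 11.7% of all probe sets, and 4 were lower (8.7%), against 10.2%, so neither share exceeded the background. The higher one was Rpl27a, a 60S protein, on a probe set of low signal (mean log2 value 7.76). It had signals of 251 and 243 in BPA10 islets, against 168 and 194 in vehicle islets. The difference was 0.45 ± 0.16 (SE; adjusted p = 0.663 with limma) and 0.45 after quantile normalization. Its other probe set, below the filter, differed by 0.31 at signals of 20 to 29 on these arrays.

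Rps19, a 40S protein that the maturing small subunit needs and that is mutated in human Diamond-Blackfan anaemia, was lower. It had 2405 and 2247 in BPA10 islets, against 2708 and 2913 in vehicle islets, a difference of -0.27 ± 0.12 (adjusted p = 0.692 with limma) and of -0.35 after quantile normalization. Rps27l, a p53-regulated form of Rps27, had 2188 and 1949 in BPA10 islets, against 2486 and 2356 in vehicle islets (-0.23 ± 0.13, adjusted p = 0.784). Its 2 other probe sets differed by -0.13 and -0.17, so all its 3 probe sets pointed one way. Rps27 itself had 100 and 87 in BPA10 islets, against 121 and 116 in vehicle islets (-0.34 ± 0.19), on a probe set of low signal. Rpl22l1, the paralog of the RNA-binding 60S protein Rpl22, had 2528 and 2100 in BPA10 islets, against 2743 and 2530 in vehicle islets (-0.19 ± 0.14), where the nearest arrays of the groups were 2528 and 2530. None of these passed.

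**Figure D5:**
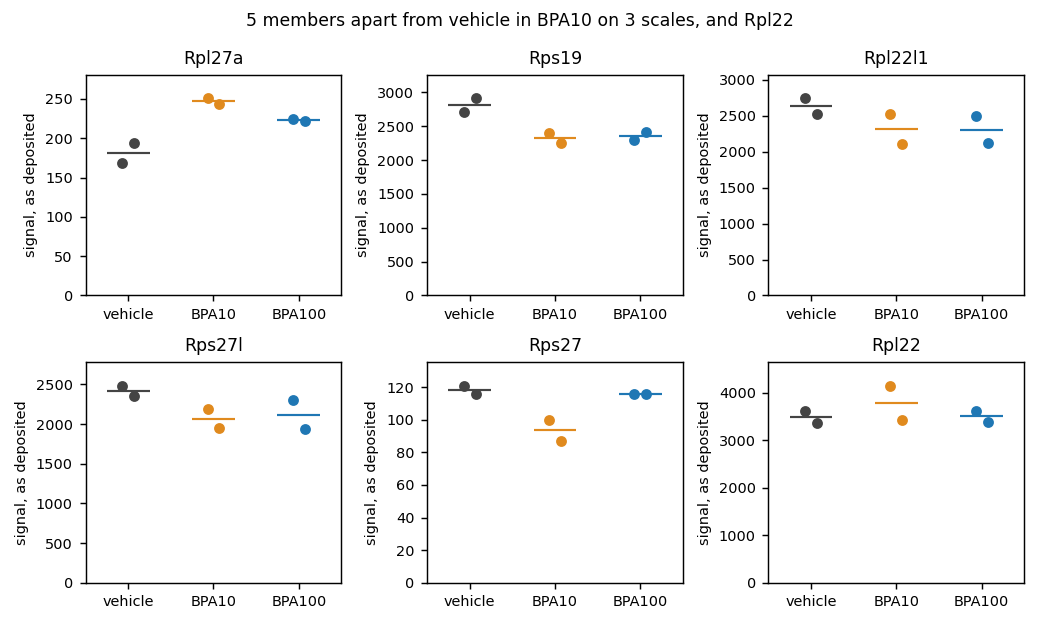
Deposited signals (linear scale from 0) of the 5 members whose BPA10 arrays lay on 1 side of both vehicle arrays on all 3 scales, and of Rpl22, the partner of Rpl22l1; points are arrays and lines are group means. Rpl27a is higher in BPA10 islets (251 and 243 against 168 and 194) and Rps19, Rpl22l1, Rps27l and Rps27 are lower, while the groups overlap for Rpl22.

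The largest downward difference in BPA10 islets was that of Rpl39, a short protein of the peptide exit tunnel, with 170 and 70 in BPA10 islets, against 166 and 122 in vehicle islets (-0.38 ± 0.45). The BPA10 arrays lay on both sides of the vehicle arrays, and the difference was smaller than its error. Rps4l, named for its likeness to Rps4x, had 473 and 515 in BPA10 islets, against 570 and 640 in vehicle islets (-0.29 ± 0.13, adjusted p = 0.719). The groups did not overlap as deposited or after quantile normalization, but did after median centring. Among genes named for their roles, Rpl11, which with Rpl5 and the 5S RNA binds the p53 regulator Mdm2, differed by 0.04 ± 0.12 (-0.10 after quantile normalization). Rpsa, known also as the laminin receptor, differed by 0.03 ± 0.18 (-0.09 after quantile normalization). Rps6, the substrate of the S6 kinases, differed by -0.03 ± 0.24 on a probe set of low signal (mean log2 value 7.62). Their 95% intervals, of -0.23 to 0.31 for Rpl11, -0.37 to 0.43 for Rpsa and -0.59 to 0.52 for Rps6, leave room for changes of either sign.

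Among the 4 tested members named as forms of another ribosomal protein, all 4 were lower in BPA10 islets, by -0.19 to -0.29, with groups that did not overlap, as was so of 18.6% of all probe sets as deposited. The groups of all 4 did not overlap after quantile normalization either, against 19.6% of all probe sets. On that scale 25 of the 46 members tested (54.3%) were lower without overlap. They were Rpl22l1, Rps27l, Rps4l and Rpl7l1, of which the first 2 also kept apart after median centring. None passed. Rpl7l1 had 425 and 539 in BPA10 islets, against 541 and 570 in vehicle islets (-0.21 ± 0.15), and its 2 other probe sets gave 0.12 and -0.13. Each of these forms was also set against its partner on the same array, which removes a scaling factor common to the whole array. It does not remove a shift that depends on brightness. Rpl22l1 minus Rpl22, relative to the vehicle mean, was -0.31 and -0.30 in BPA10 islets, against 0.01 and -0.01 in vehicle islets. The change was -0.31 as deposited and -0.24 after quantile normalization. It depends on the probe set of Rpl22, since another one of that gene differed by -0.27 where the chosen one differed by 0.11. The same ratio changed by -0.47 for Rps4l over Rps4x and by -0.36 for Rpl7l1 over Rpl7 (-0.18 and -0.17 after quantile normalization). It changed by 0.11 for Rps27l over Rps27, where the probe set of Rps27 is of low signal. With 2 arrays against 2, an exact permutation test cannot give a 2-sided p below 0.333, so the ratios are given without one.

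In islets of BPA100 offspring the members together stood where those of vehicle offspring did as deposited, and lower after quantile normalization. The median difference over the 49 members was 0.00 as deposited, with 25 higher and 23 lower, and -0.08 after quantile normalization, with 9 higher and 40 lower. Of the 46 members tested, 23 were higher as deposited (50%), against 49.1% of all probe sets, and 7 after quantile normalization (15.2%), against 50%. Over all tested probe sets the median was -0.00 on both scales. The 36 bright members had a median of 0.00 as deposited and -0.09 after quantile normalization, with 2 higher and 34 lower, against 0.08 and 0.01 for the 762 bright probe sets of other genes. No member passed with limma (0% of probe sets did), and none had an unadjusted p under 0.05, against 2.11% of probe sets higher and 1.87% lower. After quantile normalization 0 were higher and 2 lower at that level, against 2.39% and 1.97%. The 95% intervals of the 36 bright members ran from -0.53 (Rpl22l1) to 0.50 (Rps2), or 0.695-fold to 1.42-fold. The comparison shares its vehicle arrays with that of BPA10.

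Both BPA100 arrays lay above both vehicle arrays for 6 members (13%), against 16.1% of all probe sets, and below them for 5 (10.9%), against 15.8%. After quantile normalization 2 lay above (4.35%), against 17.1%, and 20 lay below (43.5%), against 15.7%. On all 3 scales 1 lay above (2.17%, against 13.7%) and 2 lay below (4.35%, against 10.6%). The higher one was Rpl27a, with 225 and 222 in BPA100 islets, against 168 and 194 in vehicle islets (0.31 ± 0.16), but its other probe set differed by -0.80. Rps19 had 2292 and 2418 in BPA100 islets, against 2708 and 2913 in vehicle islets (-0.25 ± 0.12, and -0.31 after quantile normalization). Rpl22l1 had 2492 and 2115 in BPA100 islets, against 2743 and 2530 in vehicle islets (-0.20 ± 0.14, and -0.25 after quantile normalization). For Rps19 and Rpl22l1 the groups did not overlap. Rps27l had 2301 and 1938 in BPA100 islets, against 2486 and 2356 in vehicle islets (-0.20 ± 0.13), also with no overlap as deposited, and its 2 other probe sets gave -0.18 and -0.19.

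For Rps29, Rps28, Rplp0 and Rplp2, the differences in BPA100 islets lay between -0.13 and 0.17 as deposited. Rps29 had 11824 and 10358 in BPA100 islets, against 9830 and 9879 in vehicle islets (0.17 ± 0.12, and -0.04 after quantile normalization). Rps28 had 8181 and 7030 in BPA100 islets, against 7315 and 6413 in vehicle islets, and its groups overlapped (0.15 ± 0.13, and 0.02 after quantile normalization). Rplp0 had 8647 and 6732 in BPA100 islets, against 7060 and 7051 in vehicle islets, on both sides of the vehicle arrays. Rplp2, with 6321 and 5688 in BPA100 islets, against 6628 and 6505 in vehicle islets, was lower on both scales (-0.13 ± 0.12, and -0.27 after quantile normalization). Rpl39 again spread widely, with 169 and 80 in BPA100 islets, against 166 and 122 in vehicle islets (-0.29 ± 0.45). Relative to the vehicle mean, Rpl22l1 minus Rpl22 was -0.13 and -0.28 in BPA100 islets, both values below those of the vehicle arrays. The same ratio changed by -0.17 for Rps4l over Rps4x and by -0.10 for Rpl7l1 over Rpl7 (-0.01 and 0.01 after quantile normalization). For Rps27l over Rps27 it changed by -0.17 (-0.22 after quantile normalization). The signals of Rps4l and Rpl7l1 overlapped those of the vehicle arrays as deposited.

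Between the doses, the members were lower in BPA100 than in BPA10 islets as deposited, and not after quantile normalization. The median difference was -0.10 as deposited, with 12 higher and 37 lower, and 0.01 after quantile normalization, with 27 higher and 22 lower. Of the 46 members tested, 11 were higher as deposited (23.9%), against 50.5% of all probe sets, and 26 after quantile normalization (56.5%), against 52.4%. No member passed with limma (smallest adjusted p 0.964; 0% of probe sets passed), and none had an unadjusted p under 0.05, against 2.44% of probe sets higher and 2.31% lower, or on the quantile normalized scale 2.66% and 2.39%. Both BPA100 arrays lay below both BPA10 arrays for 10 members (21.7%), against 15% of all probe sets, and above them for 4 (8.7%), against 15.7%. After quantile normalization these were 5 (10.9%, against 15.5%) and 8 (17.4%, against 17.5%). The largest downward difference among the members tested was that of Rpl27, a 60S protein, with 3927 and 3058 in BPA100 islets, against 4972 and 4020 in BPA10 islets (-0.37 ± 0.17). Its other tested probe sets did not share it, with differences of 0.05 and -0.01. The largest upward among the members tested was that of Rps27, with 116 and 116 in BPA100 islets, against 100 and 87 in BPA10 islets (0.31 ± 0.19). Next came Rpl14, with 196 and 204 in BPA100 islets, against 172 and 165 in BPA10 islets (0.25 ± 0.17). For these 3 genes the groups did not overlap on any of the 3 scales, and Rpl27a was the other member of that kind, so 2 were higher (against 9.84% of all probe sets) and 2 lower (against 9.87%). The other named downward differences were those of Rps2 (-0.21) and Rpl10a (-0.20), both of them bright members, and the other upward one was that of Rps4l (0.18). Over the 3 groups together, the moderated F test of limma passed 0 probe sets, and 0 of 46 members had an unadjusted p under 0.05, against 5.23% of all probe sets.

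Different probe sets of a gene often disagreed. Of the 20 members with several tested probe sets, 7 had all of them on 1 side of 0 for BPA10 against vehicle as deposited, and 9 after quantile normalization. For BPA100 against vehicle these were 7 and 11, and for BPA100 against BPA10 they were 10 and 8. The 3 probe sets of Rps29 agreed in sign for BPA10 against vehicle, at 0.27, 0.27 and 0.21 as deposited and -0.16, -0.14 and -0.10 after quantile normalization. Those of Rps28 gave 0.27, 0.28 and 0.20 as deposited, but had mixed signs after quantile normalization, at -0.04, 0.03 and -0.05. The 56 probe sets of members that were not chosen had a median of 0.03 in BPA10 against vehicle islets as deposited and of -0.10 after quantile normalization. The 110 probe sets with several symbols had 0.07 and -0.11. Both sets thus had the sign of the members on each scale. Some of the array's probe sets carry endings that mark probes shared between transcripts of 1 gene, as 16 of the chosen ones do. Other endings mark probes that may match several genes, as in 14 and 2 of the chosen ones. Probe sets of the second kind may not separate the close copies that ribosomal protein genes have in the genome. Over the 17 members whose chosen probe set has neither kind of ending, the median for BPA10 against vehicle was 0.04 as deposited. Most of these 17 are of low signal or below the filter, so the set also differs in signal from all 49. Its bright members, Rplp0, Rps15, Rpl27, Rpl19 and Rpsa, differed by 0.23, 0.23, 0.22, 0.05 and 0.03. Averaging all probe sets of each gene also gave 0.04, against 0.11 for the chosen probe sets of all 49.

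The machinery around the ribosome was described with 3 lists, none of whose genes passed. The list of translation factors also holds Tpt1. Of its 32 genes, 19 were higher and 13 lower in BPA10 than in vehicle islets (median 0.02, and -0.04 after quantile normalization). In BPA100 against vehicle islets 12 were higher and 20 lower (median -0.06). Tpt1, a growth-related protein whose messenger is itself a TOP messenger, had 10981 and 9991 in BPA10 islets, against 8257 and 8239 in vehicle islets (0.35 ± 0.14, adjusted p = 0.685). It turned to -0.04 after quantile normalization, as the bright ribosomal protein genes did. Pabpc1, the poly(A)-binding protein, differed by 0.26 (0.00 after quantile normalization), and the initiation factor genes Eif1a and Eif3a by -0.30 and -0.30.

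Of 47 ribosome assembly genes, 27 were higher and 20 lower in BPA10 than in vehicle islets (median 0.02), and 16 were higher and 31 lower in BPA100 than in vehicle islets (median -0.04). Nop58, a core protein of the particles that methylate ribosomal RNA, had 318 and 352 in BPA10 islets, against 429 and 425 in vehicle islets (-0.35 ± 0.14, adjusted p = 0.686). In BPA100 islets it had 335 and 312, against the same vehicle arrays (-0.40 ± 0.14, adjusted p = 1). All 4 exposed arrays thus lay below both vehicle arrays. The gene was picked by its p in both comparisons, which share those vehicle arrays. Lower without overlap as deposited were 18.6% of all probe sets in BPA10 and 15.8% in BPA100 islets. In BPA10 islets, Polr1c, a subunit of RNA polymerases I and III, differed by -0.31, Rrn3, the initiation factor of RNA polymerase I, by 0.28, and Riok2, a kinase of late 40S maturation, by 0.47. In BPA100 islets, Nop10 differed by -0.37, Nop56 by 0.24 and Nop2 by 0.28.

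The list of the mTOR pathway and its TOP regulators also holds Max. Of its 23 genes, 14 were higher and 9 lower in BPA10 than in vehicle islets (median 0.02). In BPA100 against vehicle islets 10 were higher and 13 lower (median -0.02). Eif4ebp1, the translational repressor that mTOR phosphorylates, had 386 and 378 in BPA10 islets, against 288 and 192 in vehicle islets (0.70 ± 0.24, adjusted p = 0.656). In BPA100 islets it had 213 and 151, against the same 288 and 192 (-0.39 ± 0.24), which overlapped. Ddit4l, an inhibitor of mTOR signalling, had 454 and 296 in BPA100 islets, against 81 and 70 in vehicle islets (2.27 ± 0.26, adjusted p = 0.200). In BPA10 islets it had 146 and 100, against the same 81 and 70 (0.68 ± 0.26). The groups did not overlap at either dose, and neither difference passed. Higher without overlap as deposited were 17.5% of all probe sets in BPA10 and 16.1% in BPA100 islets. Sesn2 and Akt1s1 differed by -0.32 and -0.28 in BPA10 islets, and Max and Rptor by 0.48 and -0.22 in BPA100 islets.

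The proteins of the mitochondrial ribosome are encoded by other genes, and their medians did not turn with the scale. These genes were dimmer on average, as all 76 summed to 33661 on vehicle replicate 1, against 191202 for the 36 bright members. The median of the 10 tested members of lower signal did not turn in BPA10 against vehicle islets either (-0.06 as deposited and -0.07 after quantile normalization). Whether the mitochondrial genes differ from cytosolic ones of like signal was not tested. Of 76 such genes, 22 were higher and 54 lower in BPA10 than in vehicle islets, with a median of -0.06 as deposited and -0.05 after quantile normalization. In BPA100 against vehicle islets 8 were higher and 68 lower, with a median of -0.10 as deposited and -0.09 after quantile normalization. None passed with limma. The medians of the cytosolic and mitochondrial genes thus had opposite signs in BPA10 islets as deposited and the same sign after quantile normalization, and their difference was not tested.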

How the data were processed

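Total RNA of islets was labelled over 2 cycles of cDNA synthesis and hybridised to Affymetrix arrays, per the labels' protocols. Each probe set has 1 deposited intensity per array, linear in scale. The submitters' processing notes name MAS5; its version is not given in the sources used. They are whole numbers, and the mean of every array without the lowest and highest 2% was 150.0, a scaling read from the deposited values, so they are relative within an array. In the platform annotation 34945 probe sets had 1 gene, 932 had several and 9160 had none; the 64 controls were left out. Values were taken as log2(signal + 1), which understates changes of dim probe sets. Probe sets at or above the 40th percentile of mean log2 value were tested with limma 3.58.1 in R 4.3.3 on all 6 arrays, with 3 group means, an intensity trend, 3 residual and 5.4 prior degrees of freedom, 2-sided tests and Benjamini-Hochberg adjustment over 27022 probe sets at 0.05. Differences are of group means ± moderated SE, whose median over the members was 0.13; the number of arrays limits this precision. The scripts were tested on simulated data. The members and lists were chosen with earlier results of these data known. Named members are the 3 largest differences each way per comparison, the 3 brightest and dimmest, and genes fixed by role; other genes are the 2 with the smallest p each way per list. The median centred counts, the differences between same-numbered arrays and the division at a mean log2 value of 11 were added after seeing the data. Detection calls were not used here. Promoter windows came from a RefSeq table of GRCm38.p6.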

Additional observations from a re-analysis of the deposited data

How the results depend on the processing

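The number of arrays limits all of these values. No member passed in the 3 comparisons under any alternative run. As deposited and under quantile normalization, a pseudocount of 16, no filter, a 60th percentile filter or no intensity trend, 0 probe sets passed in any comparison. With centring on the median, 6 passed for BPA100 against vehicle. With the replicate number as a block (replicate block), 7 passed for BPA100 against vehicle and 2 in the F test, and the block changed no other call; same-numbered arrays deviated together with correlations of 0.19, 0.20 and 0.08 over all probe sets tested, so the numbers were not taken to pair the arrays, and of 0.55, 0.33 and 0.31 over the members. Leaving out 1 array gave 0 to 9 for BPA10 against vehicle (9 without vehicle replicate 1), 0 to 5 for BPA100 against vehicle (5 without vehicle replicate 1, 4 without either BPA10 array), 0 to 1 for BPA100 against BPA10 (1 without BPA10 replicate 2) and 0 to 5 in the F test (5 without vehicle replicate 1), where a lone array is assumed to vary like the other groups. The median over the members became -0.098 for BPA10 against vehicle and 0.010 for BPA100 against BPA10 after quantile normalization, and the first ranged from 0.0062 to 0.214 when 1 array was left out. The median for BPA100 against vehicle then ranged from -0.052 to 0.058. Of 80 differences of named genes under 11 alternatives each, 44 were counted as turning under none, and 21 as turning when an array was left out. Rpl3l, below the filter, is not among those 21, though its difference for BPA10 against vehicle also changed sign. The turned values below have causes that were not tested.

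After quantile normalization, BPA10 against vehicle became -0.16 for Rps29, -0.035 for Rps28, -0.27 for Rpl38, -0.16 for Rpl41, -0.11 for Rplp0, -0.26 for Rplp2, -0.087 for Rpsa, -0.10 for Rpl11, -0.021 for Rpl22 and -0.042 for Tpt1. BPA100 against vehicle became -0.041 for Rps29, -0.024 for Rps2, -0.086 for Rpl41, -0.070 for Rplp0, 0.0050 for Rps6, -0.053 for Rpl22 and -0.026 for Tpt1. With median centring, BPA100 against vehicle became 0.0063 for Rps27, 0.016 for Rpl10a, 0.023 for Rpl38, 0.025 for Rpsa and 0.028 for Rps6. When a gene's probe sets were averaged, BPA10 against vehicle became 0.23 for Rps6, -0.045 for Rpl22, -0.28 for Tpt1, -0.20 for Pabpc1 and 0.18 for Eif3a, and BPA100 against vehicle became -0.25 for Rpl27a, -0.010 for Rpl41, -0.0025 for Rpl22, 0.034 for Rpl7l1, 0.29 for Eif3m, 0.14 for Eif3d and 0.71 for Rptor.

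When 1 array was left out in turn, the differences that turned ranged for BPA10 against vehicle from -1.01 to 0.25 for Rpl39, -0.24 to 0.056 for Rpl14, -0.090 to 0.52 for Rps2, -0.054 to 0.072 for Rplp2, -0.17 to 0.23 for Rpsa, -0.044 to 0.12 for Rpl11, -0.33 to 0.26 for Rps6, -0.026 to 0.25 for Rpl22 and -0.65 to 0.060 for Eif3a. For BPA100 against vehicle they ranged from -0.82 to 0.25 for Rpl39, -0.32 to 0.036 for Rpl27, -0.24 to 0.24 for Rps2, -0.12 to 0.076 for Rpl10a, -0.069 to 0.042 for Rpl38, -0.052 to 0.20 for Rpl41, -0.068 to 0.29 for Rplp0, -0.21 to 0.19 for Rpsa, -0.16 to 0.0075 for Rpl11, -0.30 to 0.28 for Rps6 and -0.045 to 0.056 for Rpl22. For BPA100 against BPA10 the range was -0.52 to 0.093 for Rps2. Rpl3l, below the filter, ranged from -0.15 to 0.17 for BPA10 against vehicle.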
